A study of Mus musculus with 2 samples.

Results

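The Vwf and Procr endothelial cells are 71 cells of the mitral valve leaflets of E17.5 mouse embryos (embryonic day), among 6370 endothelial-gated cells and 17162 cells in all. They are the endothelial cells in which von Willebrand factor (Vwf) and the endothelial protein C receptor (Procr) together gave more transcripts than the markers of any other endothelial class. A barcode was used when it held at least 500 genes, at least 1000 unique molecular identifiers (UMIs, each marking 1 captured transcript) and under 20% mitochondrial UMIs. It was gated as endothelial when Pecam1, Cdh5 and Egfl7 gave at least 3 UMIs together. It was a Vwf and Procr cell when Vwf plus Procr gave at least 3 UMIs and strictly more than each of 5 other sums. Those sums were Npr3, Plvap and Col23a1; Wnt4, Pthlh, Enpp2 and Prox1; Gpihbp1, Fabp4, Aplnr and Cd36 (capillary); Gja5, Gja4 and Cxcl12 (arterial); and Lyve1, Ccl21a, Mmrn1 and Reln (lymphatic). The mutant library held 23 of the cells and the control library 48.

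Each genotype is 1 library of droplet-based single-cell RNA sequencing of transcript 3′ ends, made from leaflets of 3 to 4 pooled hearts. The mutant embryos carried Nfatc1-Cre and loxP sites on both Dicer alleles, and the control embryos are labelled wild type. Nfatc1-Cre is active in the endocardial lineage, from which the valve endothelium and much of its mesenchyme descend, and whether each cell carried the deletion was not measured. Leaflets were digested with 0.05% trypsin, and dead cells were removed by sorting on 7-AAD. With 1 library per genotype there is no test between genotypes and no p-value below. Every interval is at 95% and covers counting error only, not the spread between embryos, pools or preparations, and genotype and library cannot be told apart.

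Von Willebrand factor is a large glycoprotein that binds platelets to injured vessel walls and is stored in the Weibel-Palade bodies of endothelial cells. Procr binds protein C at the endothelial surface and presents it to the complex of thrombin and thrombomodulin (Thbd), which activates it to an anticoagulant. In the heart, endocardium and the endothelium of valves, large veins and arteries are known for Vwf, whereas coronary capillaries carry little. DICER1 cuts microRNA precursors into mature microRNAs, which lower the level of transcripts that match their seed.

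Some features of the libraries bear on all values. The cells had a median of 9488 UMIs (range 1276 to 17231) in the mutant and 4853 (2262 to 17567) in the control library, which gave 209400 and 289419 UMIs in sum. The other endothelial-gated cells had medians of 8585 and 5404 UMIs. The median mitochondrial share in the cells was 6.13% in the mutant and 4.68% in the control library. By Xist and 4 Y-linked genes, the mutant cells comprised 7 of female type, 14 of male type and 2 undecided, and the control cells 46 of female type and 2 undecided. The libraries shared 19 barcodes, none of them of these cells. Scrublet called 1 mutant and 4 control cells as doublets. Another lineage's markers made up at least 1% of the UMIs in 3 mutant cells (1 interstitial, 1 macrophage and 1 granulocyte, the last at 11.8%) and in 5 control cells (4 interstitial and 1 macrophage). Results are given for all 71 cells and, where stated, for the 63 cells (20 mutant and 43 control) without those 8. Markers of platelets and megakaryocytes, which also make Vwf, gave 28.7 CPM (UMIs per 1000000 UMIs of the summed cells) in the mutant and 27.6 CPM in the control cells, below 97.9 and 82.4 CPM in the other endothelial-gated cells.

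The gate requires endothelial transcripts, and markers outside it were detected in shares of the cells that differed widely by marker. Of the gate genes, Pecam1, the adhesion molecule of endothelial junctions, was detected in all 23 mutant cells at 735 CPM and in 41 of 48 control cells at 328 CPM. Egfl7, an endothelial secreted factor, was detected in 23 mutant cells at 1022 CPM and in 47 control cells at 936 CPM. Cd34, an endothelial surface protein outside the rule, was detected in 16 of 23 mutant cells at 267 CPM and in 23 of 48 control cells at 142 CPM. Cldn5, a protein of endothelial tight junctions, was detected in 5 of 23 mutant and 16 of 48 control cells. Other pan-endothelial genes outside the rule were found more widely: Ramp2 in 23 mutant and 47 control cells, Ecscr in 22 and 43, and Flt1 in 20 and 41. Emcn was detected in 17 mutant and 30 control cells, and Kdr in 12 and 27. Pecam1, Egfl7, Vwf, Procr and the markers of the other sums were used to choose the cells, so their levels are descriptions.

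The 71 cells were a mixture of cells rich in Vwf and cells rich in Procr, and the mixture differed between the libraries. The mutant cells carried a median of 8 Vwf UMIs (0 to 17) and the control cells a median of 1 (0 to 10). Procr had a median of 3 UMIs (0 to 16) in the mutant and 4 (0 to 18) in the control cells. Both genes were detected in 16 mutant and 28 control cells, Vwf alone in 5 mutant and 4 control cells, and Procr alone in 2 mutant and 16 control cells. Vwf outnumbered Procr in 14 mutant and 12 control cells (Vwf-led), Procr outnumbered Vwf in 8 mutant and 34 control cells (Procr-led), and 1 mutant and 2 control cells were tied.

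**Figure D1:**
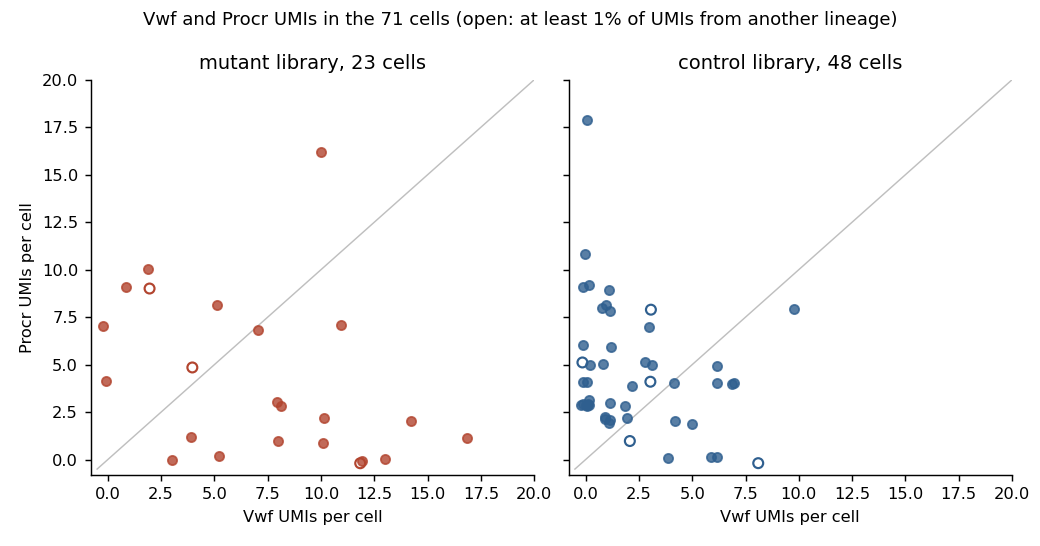
Vwf UMIs (horizontal axis) against Procr UMIs (vertical axis) in each cell, with the mutant library on the left and the control library on the right, small random offsets to separate points, the line of equal counts, and open circles for cells with at least 1% of UMIs from another lineage's markers. As drawn, 14 of 23 mutant cells fall on the Vwf side and 34 of 48 control cells on the Procr side.

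As summed counts, Vwf (chr6:125546774-125686679 on GRCm38) reached 793 CPM (interval 677 to 923) in the mutant cells and 370 CPM (303 to 447) in the control cells. Procr (chr2:155751117-155755471) reached 458 CPM (371 to 560) in the mutant and 757 CPM (660 to 864) in the control cells. Within Vwf-led cells alone Vwf was at 1175 CPM in the mutant and 1105 CPM in the control library, and within Procr-led cells Procr was at 743 and 837 CPM.

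The threshold divided the cells from close neighbours. The sum of Vwf and Procr was exactly 3 in 1 mutant and 12 control cells, and it led the next sum by only 1 UMI in 5 mutant and 18 control cells. Just outside, 6 mutant and 26 control cells were behind another sum by 1 UMI, 14 control cells were tied at 3 or more, and 2 cells in each library led with a sum of 2. Altogether 328 mutant and 404 control gated cells held at least 3 UMIs of Vwf and Procr, but another class sum was higher in 305 and 342 of them. The next sum in mutant cells was that of Npr3 and Plvap in 6, of Wnt4 and Pthlh in 6, arterial in 6 and capillary in 3. In control cells it was Npr3 and Plvap in 14, Wnt4 and Pthlh in 8, capillary in 8, arterial in 3 and lymphatic in 1.

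Vwf and Procr cells made up 0.880% (exact Clopper-Pearson interval 0.558 to 1.32) of the endothelial-gated cells in the mutant and 1.28% (0.944 to 1.69) in the control library, and these intervals overlap. Since the rule needs counts, the cells were also thinned to 2000 UMIs each. This left out 132 mutant and 190 control gated cells as too shallow. The gate was applied again to the thinned counts, so each draw kept fewer gated cells. The share was then 0.415% (8 of 1926) in the mutant and 0.761% (19 of 2498) in the control library in 1 draw, and 0.703% and 0.877% as means of 100 draws. With 1 library per genotype, a difference in share could not be tested.

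Vwf and Procr were not confined to these cells, and the other classes carried them in different proportions. Outside the chosen cells the share with a Vwf UMI was highest in the Npr3 and Plvap class in the mutant library, with 77.1% there and 40.2% in the control library. Arterial cells had 71.4% in the mutant and 54.2% in the control library. By level arterial cells led, with 415 CPM of Vwf in the mutant and 348 CPM in the control library. Npr3 and Plvap cells had 351 and 140 CPM. Capillary cells were low, at 33.5 CPM of Vwf in the mutant and 38.9 CPM in the control library, but are so many that 233 of the 493 other mutant gated cells with a Vwf UMI were capillary. Procr was detected most in the Wnt4 and Pthlh class, in 58.2% of mutant and 55.8% of control cells, and next in the Npr3 and Plvap class, in 54.2% and 33.7%. By level, Procr had 112 CPM in the mutant and 205 CPM in the control library in the Wnt4 and Pthlh class. In the Npr3 and Plvap class it had 162 and 101 CPM. In macrophages, which should lack both, Vwf was detected in 3.29% of mutant and 1.66% of control cells, and Procr in 0.412% and 0.277%. Interstitial cells held a Procr UMI in 6.86% of mutant and 7.52% of control cells. Mural cells held one in 18.9% of mutant and 1.43% of control cells. Detection depends on depth, which was higher in the mutant library and differed between classes.

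**Figure D2:**
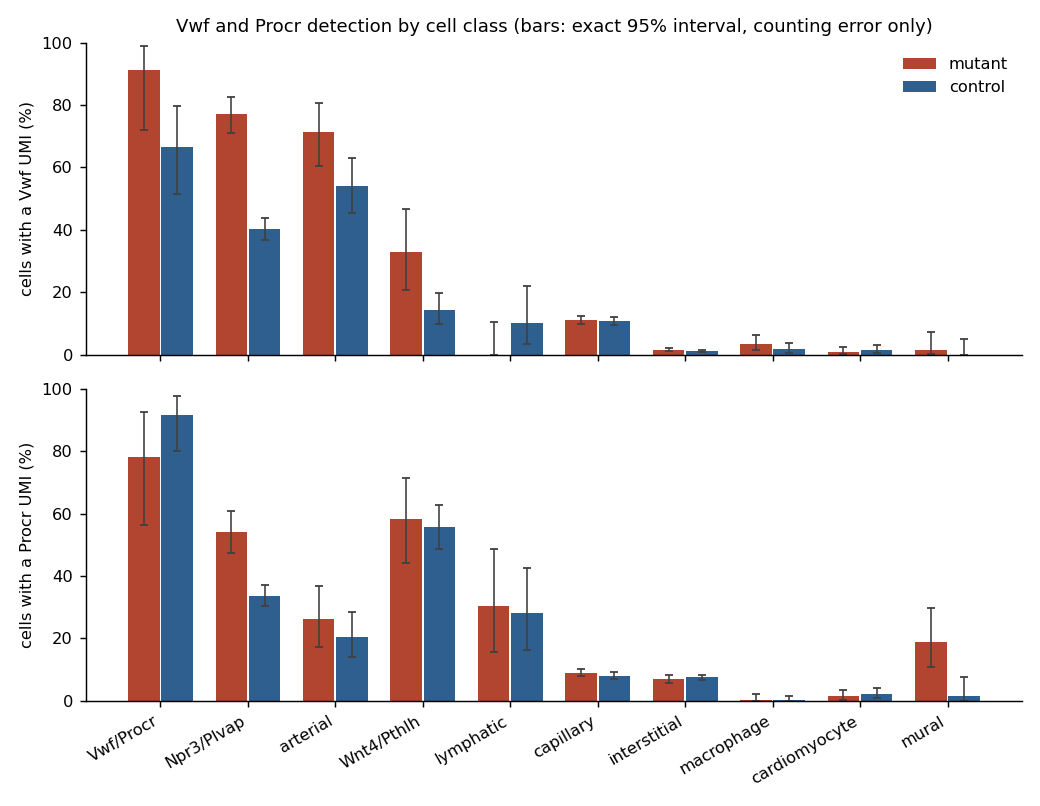
Share of cells with at least 1 Vwf UMI (upper panel) or Procr UMI (lower panel) in each endothelial class and in 4 other lineages, in percent, with exact intervals that cover counting error only; the mutant bar stands left of the control bar. Npr3 and Plvap cells and arterial cells lead for Vwf after the chosen cells, and Wnt4 and Pthlh cells lead for Procr.

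Against the other endothelial-gated cells, the Vwf and Procr cells carried more transcripts of endocardial, valve and matrix genes and far fewer of capillary genes, in both libraries. Among 3341 genes with a mean of at least 50 CPM, 112 (3.35%) reached a 2-fold higher level in both libraries and 90 (2.69%) a 2-fold lower one. With the other classes weighted equally, since most other gated cells are capillary, 38 were higher and 43 lower. Read alone, the mutant library had 7.9% of genes higher and 7.15% lower, and the control library 4.37% and 4.97%. Without the 8 cells of mixed markers the shares in both libraries were 3.53% and 3.26%. The cells were chosen by measured values, so these are descriptions of the chosen cells. Ratios are of summed CPM with 0.5 counts added.

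Secreted vasoactive and growth factors were among the 15 highest genes. Edn1 (chr13:42301476-42307990), which encodes endothelin 1, a vasoconstrictor peptide also stored in Weibel-Palade bodies, had 621 CPM in the mutant cells against 23.4 CPM in the other gated cells, a log2 ratio of 4.73 (4.44 to 5.01). In the control library it had 256 CPM in the cells against 43.9 CPM in the others, a log2 ratio of 2.55 (2.18 to 2.88). It was detected in 13 of 23 mutant and 15 of 48 control cells. No other endothelial class reached these levels: arterial cells had 88.6 CPM of Edn1 in the mutant and 147 CPM in the control library, and Npr3 and Plvap cells had 93.5 and 133 CPM.

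Eln (chr5:134702593-134747323), which encodes elastin, the protein of elastic fibres, was the only 1 of 3341 genes (0.0299%) at least 2-fold above each of the 5 other endothelial classes in both libraries. It had 411 CPM in the mutant cells against 58.8 CPM in the other gated cells (log2 ratio 2.81), and 788 CPM in the control cells against 102 CPM (2.95). It was detected in 12 of 23 mutant and 37 of 48 control cells. In the mutant 1 cell gave 37.2% of the Eln UMIs, and in the control library 1 cell gave 28.1%. The nearest classes were lymphatic in the mutant (192 CPM) and Wnt4 and Pthlh in the control library (348 CPM). Whether Eln stays 2-fold above each class without those cells was not tested. Interstitial cells carried Eln at 295 CPM in the mutant and 332 CPM in the control library, and mural cells at 629 and 580 CPM, and the part of such RNA in the result was not tested.

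Fst, which encodes the activin-binding protein follistatin, had 267 CPM in the mutant cells against 23.7 CPM in the other gated cells (log2 ratio 3.51), and 82.9 CPM in the control cells against 8.22 CPM (3.36). It was found in few cells, 7 mutant and 6 control. Bmp4, a ligand of the bone morphogenetic protein pathway, had log2 ratios of 3.22 and 2.24. Nkd1 encodes a feedback inhibitor of WNT signalling. The transcription factor Twist1, known from cushion mesenchyme, had 2.01 and 1.99, and the growth factor receptor Pdgfra 2.05 and 1.96. Twist1 and Pdgfra are also among the interstitial markers used to flag cells of another lineage. The part of interstitial RNA in their ratios was not tested. The other genes of the 15 were Prrt4, Nckap5, Olfml2a, Ahsg, Ccn2, Cd24a, Nupr1 and Ccl2. Every Ccl2 UMI, 49 in the mutant and 39 in the control library, came from 1 cell per library. Some of these genes were higher in the Wnt4 and Pthlh class. Nkd1 had 224 CPM there in the mutant and 152 CPM in the control library, against 86.0 and 89.8 CPM in the Vwf and Procr cells.

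Nfatc1, a transcription factor of endocardium and valve endothelium, had 201 CPM in the mutant cells against 36.9 CPM in the other gated cells, and 159 CPM in the control cells against 58.6 CPM. The Wnt4 and Pthlh class had more, 274 CPM in the mutant and 230 CPM in the control library. The Cre carries the name of this gene, and whether its allele changes the Nfatc1 level is not given in the sources used here. Endocardial genes were at least 1.5-fold higher in both libraries for 11 of 19 measured, against 10.9% of all genes at this floor of 10 CPM, and 1 was lower. Cytl1 (log2 ratios 4.21 in the mutant and 1.63 in the control library), Gata4 (2.39 and 1.58) and Hand2 (2.48 and 1.55) were among them. Of 14 valve endothelial genes, 9 were higher and none lower, with Wnt9b at 2.98 and 3.17. Of 9 genes of WNT signalling 5 were higher, and of 25 interstitial matrix genes 8 were higher, with Fbln2 at 1.93 and 1.67 and Vcan, the proteoglycan versican, at 2.29 and 1.09. These list counts are against gated cells that were mostly capillary, and they were not repeated with the classes weighted equally. Among genes with a mean of at least 50 CPM, only Eln stood 2-fold above each of the 5 other classes in both libraries. Higher levels of these lists are therefore not shown to be particular to the Vwf and Procr cells. The interstitial markers share Col1a1, Col1a2, Col3a1, Postn, Dcn and Lum with the matrix list, so they give no separate readout of it. In the median cell they took 0.127% of UMIs in the mutant cells against 0.0309% in the other gated cells. In the control library they took 0.193% against 0.0451%. Summed, they were at 2154 against 2357 CPM in the mutant and 5397 against 2465 CPM in the control library, and their part was not tested.

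Some genes of the protein C system and of Weibel-Palade bodies were higher in both libraries, a larger share than the 10.9% of all genes. The share lower was near the 6.12% of all genes, and all these shares rest on few genes. Among 17 anticoagulant and fibrinolytic genes, 4 were higher and 1 lower in both libraries: Thbd, the thrombin receptor that works with Procr, had log2 ratios of 2.55 in the mutant and 1.43 in the control library, the prostacyclin synthase Ptgis 2.59 and 1.64, Gas6 1.94 and 1.28, and Ptgs1 1.62 and 1.07. Among 13 Weibel-Palade genes, Edn1, the endothelin-converting enzyme Ece1 (1.81 and 1.07) and the granule membrane protein Cd63 (1.14 and 0.75) were higher and Igfbp7 was lower. Other classes held more of some: Ptgis had 278 CPM in the mutant and 167 CPM in the control library in the Wnt4 and Pthlh class, against 244 and 121 CPM in the Vwf and Procr cells, and Ece1 had 737 and 567 CPM in the Npr3 and Plvap class, against 592 and 494 CPM.

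Capillary genes were lower for 12 of 14 measured, against 6.12% of all genes, and none was higher. Meox2 and Tcf15, transcription factors of heart capillaries, Rgcc, Rbp7, Ly6c1, Mgll, Tmem255a, Depp1, Ankrd37 and Nrp2 were the 10 lowest genes. Tcf15 gave no UMI in the mutant cells, which allows up to 14.3 CPM, against 297 CPM in the other gated cells. In the control cells it had 34.6 CPM against 277 CPM. The other gated cells were mostly capillary, with 2116 of 2592 in the mutant and 2369 of 3707 in the control library. Of 32 pan-endothelial genes 12 were lower, among them Cd34 at -1.43 in the mutant and -2.12 in the control library.

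**Figure D3:**
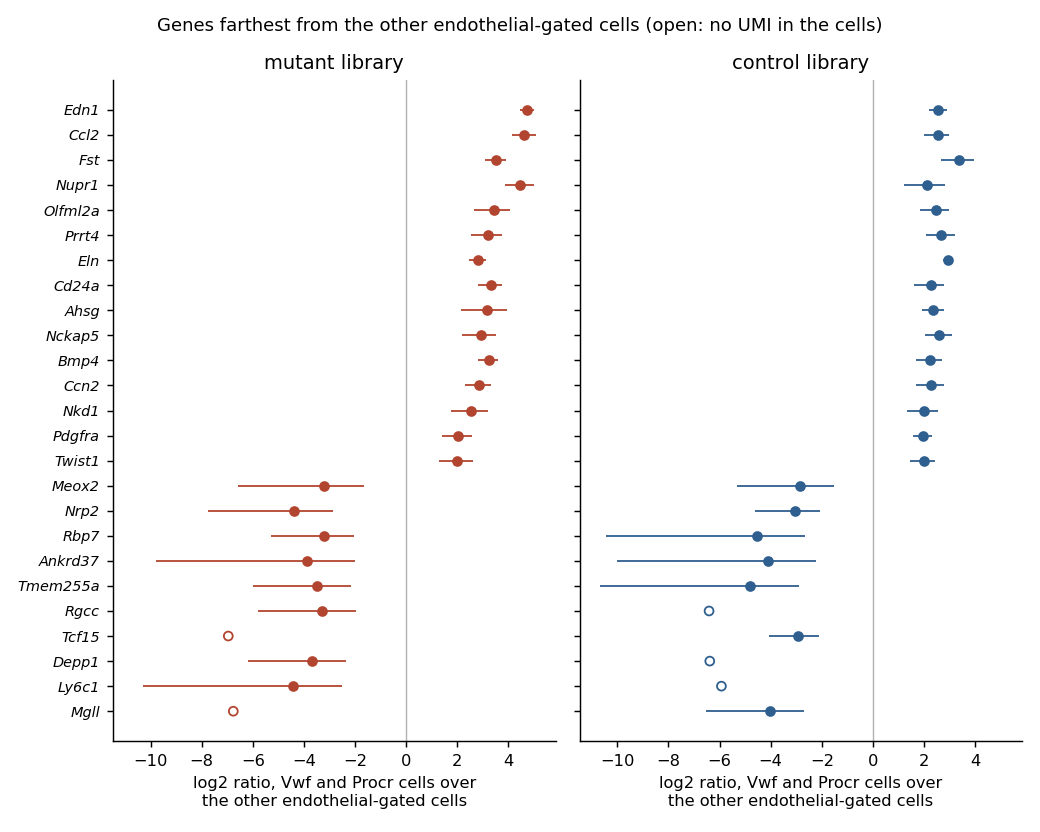
Log2 ratio of summed CPM in the Vwf and Procr cells over the other endothelial-gated cells for the 15 highest and 10 lowest genes, with the mutant library on the left and the control library on the right; lines are intervals that cover counting error only, and open circles mark genes with no UMI in the cells. Edn1 stands highest in the mutant library at 4.73, and Fst in the control library at 3.36.

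Set against the classes one by one, the cells were nearest to the Npr3 and Plvap and the Wnt4 and Pthlh classes. Only 40 genes (1.18%) stood 2-fold above and 26 (0.765%) 2-fold below the Npr3 and Plvap class in both libraries, and 39 (1.13%) and 42 (1.22%) against the Wnt4 and Pthlh class. Against arterial cells 106 (3.11%) were higher and 162 (4.76%) lower, against capillary cells 210 (6.34%) and 147 (4.44%), and against lymphatic cells 170 (5.11%) and 117 (3.52%). Over the 2000 most abundant genes, Pearson's correlation of log levels was 0.860 in the mutant and 0.912 in the control library with the Npr3 and Plvap class, and 0.834 and 0.933 with the Wnt4 and Pthlh class. It was 0.752 and 0.865 with arterial and 0.675 and 0.784 with capillary cells. These are correlations across genes, which are not independent replicates, and the summed profiles differ in depth.

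The Vwf-led and Procr-led cells differed in other genes as well. Of 3372 genes, 79 (2.34%) stood 2-fold above and 52 (1.54%) 2-fold below in Vwf-led relative to Procr-led cells of both libraries. Counts were small, with 3 UMIs making 46.7 CPM in Vwf-led control cells. For some of these genes, such as Gpm6a and Marf1, the intervals in both libraries include no difference. The genes named here were chosen after their values were seen. Myct1, an endothelial membrane protein, was detected in 11 of 14 Vwf-led mutant cells and in none of the 8 Procr-led ones, and it had 156 CPM in Vwf-led against 18.3 CPM in Procr-led control cells. Sparcl1 had 287 CPM in Vwf-led against 32.8 CPM (3 UMIs) in Procr-led mutant cells, a log2 ratio of 2.93 (1.46 to 5.48), and 436 against 137 CPM in control cells. Ccn2, a matricellular protein, had 252 against 54.6 CPM in mutant and 280 against 54.9 CPM in control cells. It was detected in few cells, 3 of 14 Vwf-led and 3 of 8 Procr-led mutant cells. In the control library these were 5 of 12 and 3 of 34. One mutant cell held 17 of the 37 mutant UMIs of Ccn2. Edn1 followed Vwf, with 775 CPM in Vwf-led and 382 CPM in Procr-led mutant cells, and 685 and 133 CPM in control cells.

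Some genes were higher in Procr-led cells. As lists, valve endothelial genes summed to 2159 CPM in Vwf-led and 1791 CPM in Procr-led mutant cells, and to 1525 and 1463 CPM in control cells. Interstitial matrix genes summed to 6197 and 6913 CPM in mutant and to 13058 and 9319 CPM in control cells. Cells with at least 1% of UMIs from interstitial markers gave 418 and 115 of the 839 matrix UMIs in Vwf-led control cells. Such cells gave 426 and 276 of 2038 in Procr-led control cells, and 259 of 633 in Procr-led mutant cells. Hapln1, a link protein of hyaluronan matrices, had 148 CPM in Vwf-led against 950 CPM in Procr-led mutant cells, and no UMI in Vwf-led control cells, which allows up to 46.7 CPM, against 123 CPM in Procr-led ones. Pdgfra, itself an interstitial marker, had 8.70 CPM (1 UMI) against 273 CPM in mutant cells, a log2 ratio of -4.41 (-10.33 to -2.36). In control cells it had 77.8 against 256 CPM. The cyclin Ccnd1 rests on 3 UMIs in Vwf-led mutant cells (-2.04, interval -4.68 to -0.28) and 1 UMI in Vwf-led control cells (-2.43, interval -8.34 to -0.39). Interstitial markers summed to 1036 CPM in Vwf-led and 3615 CPM in Procr-led mutant cells, and to 6537 and 5154 CPM in control cells. These sums include a Procr-led mutant cell with 1.85% of its UMIs from such markers. They also include Vwf-led control cells with 1.57% and 1.74%, and Procr-led control cells with 1.91% and 2.18%. The split was not repeated without the cells of mixed markers, and the part of these markers in the differences was not tested. Vwf-led cells held 114889 UMIs in the mutant and 64251 in the control library, and Procr-led cells 91564 and 218686.

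Across the 71 cells, the genes whose log-scaled counts, centred by library, went most closely with Vwf were Myct1 (Pearson's r 0.57), P4ha3 (0.50), Plxnd1 (0.49), Ptprb (0.49) and Esam (0.49). Ptprb and Esam are endothelial junction genes. With Procr went Thbd (0.42), Ecscr (0.41), Ddah2 (0.39), Rasa3 (0.37) and Ramp2 (0.36). The cells share libraries and depth, so these are descriptions with no test. Vwf and Procr themselves gave an r of -0.22, which the rule on their sum favours.

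Dicer1 (chr12:104687742-104751952), the gene targeted in the mutant, had 38.2 CPM (8 UMIs in 7 of 23 cells) in the mutant against 93.3 CPM (27 UMIs in 19 of 48 cells) in the control cells, a log2 ratio of -1.23 (-2.64 to -0.11). In the other endothelial-gated cells the ratio was -0.45. Reads from the transcript's 3′ end need not cover the part that Cre removes, so the level says nothing of whether a cell lost the gene.

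Between mutant and control cells, flow-responsive genes had the highest median ratio of the lists described, and cell cycle and interstitial matrix genes the lowest, but several of these values moved with the choice of cells, as given beside each. Among 3381 genes with a mean of at least 50 CPM, 172 (5.09%) stood 2-fold above and 151 (4.47%) 2-fold below control in the mutant cells, and for 275 of these 323 (9.55%) the interval lay wholly on 1 side of no difference. Among 3268 genes in the other endothelial-gated cells, which held 24907762 UMIs in the mutant and 22006620 in the control library, 1 gene was higher (0.0306%) and 10 were lower (0.306%). Without the 8 cells that held another lineage's markers, 193 (5.77%) were higher and 167 (4.99%) lower, and 222 genes passed in both. The class make-up of the other gated cells differed between the libraries. Npr3 and Plvap cells were 214 of 2615 gated cells in the mutant and 777 of 3755 in the control library. Wnt4 and Pthlh cells were 55 and 197. The part of this make-up in the ratios of the other gated cells was not tested.

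The 12 highest genes over all cells were granulocyte genes from 1 mutant cell. Cstdc5, S100a9, S100a8, Cstdc4, Retnlg, Stfa1, Stfa2l1, Stfa3, Csta2, Stfa2, Olfm4 and Mmp8 each took at least 95.3% of their mutant UMIs from it. Without the 8 cells, the 12 highest were Hspb1, Cyp26b1, Nrg1, Cdo1, Cytl1, Sox17, Hmox1, Hist1h1c, Parl, Tinagl1, Tcim and Lpar4.

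Nrg1 (chr8:31814551-32884029) encodes neuregulin 1, the endocardial ligand of ERBB receptors on heart muscle. It had 559 CPM (117 UMIs in 15 of 23 cells) in the mutant against 62.2 CPM (18 UMIs in 11 of 48 cells) in the control cells, a log2 ratio of 3.13 (2.44 to 3.97). One mutant cell gave 49.6% of its UMIs. In the other endothelial-gated cells the ratio was -0.57.

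Cyp26b1 (chr6:84571414-84593908), an enzyme that degrades retinoic acid, had 234 CPM (49 UMIs in 12 of 23 cells) in the mutant against 20.7 CPM (6 UMIs in 5 of 48 cells) in the control cells, a log2 ratio of 3.40 (2.27 to 5.01). Sox17, a transcription factor of arterial endothelium, had 110 CPM in 13 of 23 mutant cells against 13.8 CPM in 4 of 48 control cells (2.85, interval 1.44 to 4.98). Tinagl1, a basement membrane protein, had 387 CPM in 14 mutant cells against 76.0 CPM in 11 control cells (2.32, interval 1.65 to 3.10). These 3 genes were spread over cells, whereas 1 mutant cell held 58.4% of the Hspb1 UMIs and 89.5% of the Hmox1 UMIs.

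The flow-responsive list holds genes that answer to or sense blood flow. Most, such as Klf2 and Nos3, are known to be raised by laminar shear, but Edn1 is known to be lowered by it and Piezo1 and Pkd1 encode sensors. Of 20 measured, 14 were at least 1.5-fold higher in the mutant cells and 1 lower, against 21.1% higher and 23.6% lower of all 8564 genes at the floor of 10 CPM. The median log2 ratio was 1.04, against -0.03 for all genes, and 0.16 for the list in the other endothelial-gated cells. Klf2, the transcription factor at the head of this response, had 1648 CPM (345 UMIs in 21 of 23 cells) in the mutant against 553 CPM (160 UMIs in 27 of 48 cells) in the control cells, a log2 ratio of 1.57 (1.30 to 1.86). Klf4 had 530 against 169 CPM (1.64, interval 1.15 to 2.16), and Thbd 353 against 128 CPM (1.46, interval 0.88 to 2.08). Within Vwf-led cells alone the list's median was 0.59 and within Procr-led cells 0.47, both smaller than over all cells. In the 7 mutant and 20 control cells where Vwf plus Procr was at least 2 times the next sum, the median was 0.28 and the Klf4 ratio -0.29.

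Immediate early genes, which can rise when tissue is dissociated, were also higher, for 11 of 22 with a median of 0.65; they include Atf3 (2.18, interval 0.42 to 4.82, on 3 control UMIs), Rhob (2.11) and Btg2 (1.70). In the cells with Vwf and Procr each detected the median was 0.022. The part of these genes in the flow-responsive result was not tested. In the other endothelial-gated cells their median was 0.24.

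The next lists are read against 21.1% of all genes higher and 23.6% lower. Arterial genes were higher for 13 of 24 and lower for 4, with a median of 0.75, which was 0.15 at a floor of 50 CPM. Sema3g, a semaphorin, had 71.6 CPM in the mutant against 3.46 CPM (1 UMI) in the control cells (3.84, interval 1.67 to 9.77). The arterial median was 0.75 within Vwf-led cells and -0.50 within Procr-led cells. Pan-endothelial genes were higher for 13 of 31 and lower for 2, with a median of 0.50. Endocardial genes were higher for 9 of 21 and lower for 5, with a median of 0.34; Hapln1 had 497 CPM in the mutant against 104 CPM in the control cells (2.24). Weibel-Palade genes were higher for 3 of 14, a share near that of all genes, and lower for 1. Edn1 itself had 621 CPM in the mutant against 256 CPM in the control cells (1.28, interval 0.86 to 1.71).

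**Figure D4:**
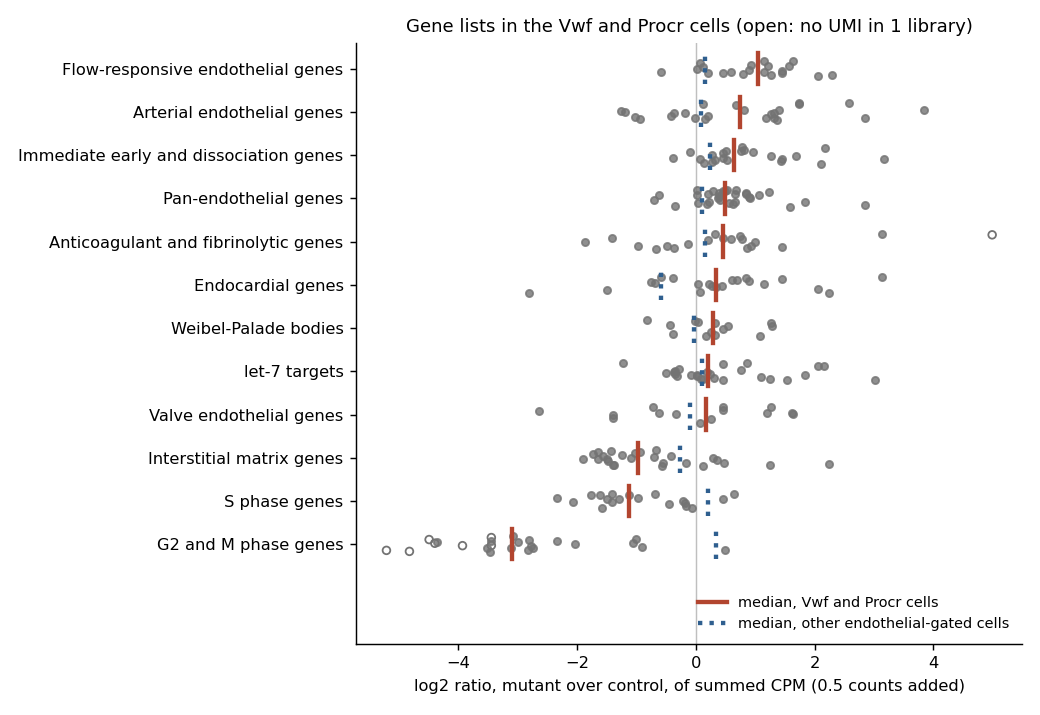
Log2 ratio of mutant over control for each measured gene of 12 lists in the Vwf and Procr cells (grey points; open where 1 library gave no UMI), with the list's median in these cells (solid line) and in the other endothelial-gated cells (dotted line). Flow-responsive genes have the highest median at 1.04, and G2 and M phase genes the lowest at -3.09.

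Genes of the cell cycle made up much of the lower end. Of the 12 lowest genes, Prc1, Cenpe, Cenpa, Cenpf, Ube2c, Mki67 and Top2a act in mitosis or chromosome segregation. The others were Qdpr, Vcam1, Aebp1, Lsamp and Snhg18, and without the 8 cells Opcml, Smim14, Dancr and Pclaf entered. Cenpf, a kinetochore protein, had 23.9 CPM in the mutant against 297 CPM in the control cells (-3.51, interval -5.30 to -2.36). Mki67, the marker of cycling cells, had 19.1 CPM in 3 of 23 mutant cells against 183 CPM in 14 of 48 control cells (-3.10, interval -5.19 to -1.82). Aebp1, which binds collagen, had 28.7 CPM in the mutant against 169 CPM in the control cells (-2.46, interval -4.08 to -1.34). Of 24 measured G2 and M phase genes 23 were lower in the mutant cells and none higher, with a median of -3.09, or -2.72 with genes that had no UMI set to 3 counts. Their summed level was 449 CPM (94 UMIs) in the mutant against 2156 CPM (624 UMIs) in the control cells. In the other endothelial-gated cells their median was 0.35.

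A few control cells held most of these UMIs. The highest and second highest control cells held 200 and 188 of the G2 and M phase UMIs, 62.2% of the total, whereas the highest mutant cell held 17. Without those 2 cells the control level was 901 CPM (790 to 1024) and the list's median -1.75. In the cells where Vwf plus Procr was at least 2 times the next sum, the median was 0.54, on the other side of 0. By cells, 6 of 23 mutant and 11 of 48 control cells held at least 5 UMIs of the list, 26.1% (10.2 to 48.4) and 22.9% (12.03 to 37.31), in libraries of different depth. The median was 3 UMIs in the mutant and 1 in the control cells. S phase genes were lower for 12 of 19, against 23.6% of all genes, with a median of -1.12. That median was -0.22 at a floor of 50 CPM and -0.20 where Vwf plus Procr was at least 2 times the next sum, and 2 control cells held 81 of the 221 control UMIs.

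**Figure D5:**
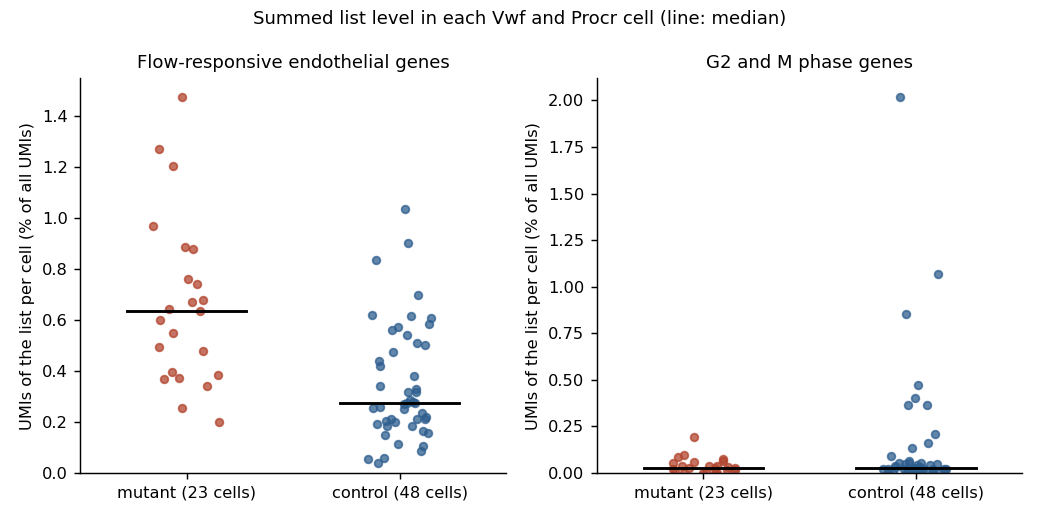
Share of each cell's UMIs that came from the flow-responsive list (left) and the G2 and M phase list (right), in percent, with the 23 mutant cells left of the 48 control cells and a line at the median. The flow-responsive share was higher in mutant cells (median 0.634% against 0.275%) with overlapping ranges, and for the G2 and M phase list a few control cells stand far above all others.

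Interstitial matrix genes were lower for 16 of 26 and higher for 2, with a median of -0.98, of -0.65 without the 8 cells and of -0.33 without the cells that Scrublet called. Postn, the matricellular protein periostin, had 415 CPM in the mutant against 1178 CPM in the control cells (-1.50, interval -1.86 to -1.16). The summed interstitial markers were at 2154 CPM in the mutant and 5397 CPM in the control cells. Col1a1, Col1a2, Col3a1, Postn, Dcn and Lum are both markers and members of this list, so the markers give no separate readout. Of the 15 markers, 11 had a UMI in the mutant and all 15 in the control cells, with Matn4, Sfrp2, Dpep1 and Prrx1 at 0 in the mutant cells. The range per cell was 0 to 1.85% of UMIs in the mutant and 0 to 2.18% in the control cells. The part of interstitial RNA in the result was not tested.

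Because DICER1 makes microRNAs, the targets of let-7, a family known to hold down fetal growth genes, were read next. The 9 mature members below, from RefSeq on GRCm38.p6, share 1 seed (bases 2 to 8, in capitals), which a target pairs with through the heptamer CTACCTC. They are shown to let the match be read against the sites after them.
let-7a-5p: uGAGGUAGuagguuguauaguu
let-7b-5p: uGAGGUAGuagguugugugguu
let-7c-5p: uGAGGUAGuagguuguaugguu
let-7d-5p: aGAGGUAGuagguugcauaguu
let-7e-5p: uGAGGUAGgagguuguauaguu
let-7f-5p: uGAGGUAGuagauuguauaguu
let-7g-5p: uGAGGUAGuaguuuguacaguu
let-7i-5p: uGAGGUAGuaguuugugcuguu
miR-98-5p: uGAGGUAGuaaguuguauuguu

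Of 26 measured let-7 targets 9 were at least 1.5-fold higher in the mutant cells and 1 lower, against 21.1% and 23.6% of all genes, with a median of 0.21. The lower one was Dicer1, the gene targeted in the mutant. Only 22 of the 32 listed genes hold the heptamer in the annotated 3′ UTR, and of the 9 higher genes Thbs1, Cdk6 and Peg10 do not. Without the 8 cells 12 were higher and 2 lower, with a median of 0.34. The highest 4 were Arid3a, Igf2bp2, Hmga2 and Arid3b, of which Arid3a and Arid3b are DNA-binding proteins, Igf2bp2 binds messenger RNA and Hmga2 binds chromatin. Arid3a had 95.5 CPM (20 UMIs in 8 cells) in the mutant against 10.4 CPM (3 UMIs in 3 cells) in the control cells, a log2 ratio of 3.02 (1.45 to 5.60). Igf2bp2 had 66.9 against 13.8 CPM (2.15, interval 0.60 to 4.34). Hmga2, at 7 against 2 UMIs (2.05, interval -0.12 to 5.58), and Arid3b, at 6 against 2 UMIs (1.85, interval -0.43 to 5.39), had intervals that include no difference. In the other endothelial-gated cells the ratios were 0.97 for Arid3a, 0.44 for Igf2bp2, 0.68 for Hmga2 and 0.69 for Arid3b.

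One site of each of these 4 genes is shown, in the sense of the transcript, with the heptamer in capitals, from the longest annotated 3′ UTR of GENCODE M21 on GRCm38. The Arid3a site is at chr10:79953902-79953924 (plus strand) and is 1 of 2, and the Igf2bp2 site is at chr16:22059466-22059488 (minus strand). The Hmga2 site is at chr10:120364217-120364239 (minus strand) and is 1 of 4, and the Arid3b site is at chr9:57790356-57790376 (minus strand).
Arid3a: gtttctttCTACCTCaggtcttt
Igf2bp2: aataaaagCTACCTCaggtgttt
Hmga2: ttcaatttCTACCTCagcatcag
Arid3b: ataaagctCTACCTCttcaca

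CTACCTC occurred on the transcript's strand in the 3′ UTR of 10.4% of the genes measured at 10 CPM that had one annotated. Those 870 genes had a median log2 ratio of 0.03, against -0.04 for the 7529 without the heptamer. Of genes with the heptamer 24.6% were at least 1.5-fold higher, against 20.7% without it, and 23.1% were lower, against 23.6%. In the other endothelial-gated cells 1.06% of genes with the heptamer were higher, against 1.07% without it, and 1.88% were lower, against 1.58%. Genes with the heptamer also had longer UTRs, with a median of 2726 against 1129 bases. A match of letters is a description and not a site of binding.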

How the data were processed

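Values are unnormalized UMI counts as deposited. The submitters' processing notes name Cell Ranger 5.0.0 and mm10; the annotation and any barcode filter are not given in the sources used here, and the smallest barcode total was 500. Libraries held 8250 (mutant) and 12793 (control) barcodes with 69475632 and 70221728 UMIs, of which 6403 and 10759 passed. Rows sharing a symbol were summed (32285 rows, 32245 symbols). Counts were summed over cells per library and scaled to CPM. Ratios carry 0.5 added counts and exact conditional Poisson intervals, levels exact Poisson and shares exact Clopper-Pearson intervals. Doublets were called with Scrublet in scanpy 1.11.5 and kept, except in an alternative; the calls (3.30% and 3.85%) fell short of the 5.12% and 8.61% expected from loading, so some doublets may be left in. Cells and gene lists were chosen with earlier results of these data known. Lists overlap, and Edn1 is in several.

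Named genes were Vwf, Procr, the other genes of the rule, Dicer1 and Nfatc1; the 12 highest and 12 lowest ratios of mutant over control with an interval that excludes 0; the 15 highest and 10 lowest against the other gated cells by the smaller ratio of both libraries; up to 4 genes of each list; and the 5 genes closest to Vwf and to Procr. Genes of the rule, mitochondrial, ribosomal, erythroid, sex-linked and unnamed genes were left out of these, as were genes whose level was under 1/5 of that in interstitial, cardiomyocyte, macrophage or mural cells. The ratio step was tested on simulated data. Coordinates come from GENCODE M21. Alternatives were other filters, minima, gates, floors, weights and added counts, doublet removal, thinning and female-type cells.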

Additional observations from a re-analysis of the deposited data

Results flagged for a closer look

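For 11 named genes mutant and control differed at least 2-fold in the Vwf and Procr cells and at least 1.5-fold in the opposite direction in the other endothelial-gated cells. Smaller opposite differences, such as that of Nrg1 (3.13 against -0.57), are not counted among them. The difference between these sets of cells was not tested. For 10 of them the log2 ratio in the Vwf and Procr cells came almost wholly from 1 mutant cell with granulocyte genes. These were Cstdc5 (9.46, against -3.04 in the other gated cells), S100a9 (9.10 against -2.58), S100a8 (8.87 against -2.62), Cstdc4 (8.70 against -2.32), Stfa1 (7.51 against -2.71), Stfa2l1 (7.18 against -1.81), Stfa3 (6.91 against -2.19), Csta2 (6.62 against -3.26), Stfa2 (6.14 against -1.31) and Olfm4 (6.08 against -1.91). Where the control cells had no UMI, the ratio depends on the 0.5 counts added and is no bound. Cytl1, a secreted protein, had a ratio of 1.46 (0.84 to 2.12) in the Vwf and Procr cells and -1.12 in the other gated cells. Its level was 315 CPM in 7 of 23 mutant cells and 114 CPM in 8 of 48 control cells. As given above, the class make-up of the other gated cells differed between the libraries. The part of that make-up in these opposite ratios was not tested.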

How the results depend on the processing

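Of 820 comparisons of 51 named genes with alternatives, 768 stayed within the counting interval, 47 moved outside it and 5 were counted as sign changes. A sign change was counted only for genes at least 2-fold apart in the main result. Genes with smaller ratios were sorted by the interval alone, whatever their sign. The sign changes counted were Hspb1 (-3.08) and Klf4 (-0.29) where the sum was at least 2 times the next, Hmox1 (-1.40) and Lpar4 (-0.61) in female-type cells, and Lpar4 (-2.20) in Procr-led cells. The cause was not tested. With the sum at least 2 times the next (7 mutant and 20 control cells), the share was 0.268% in the mutant and 0.533% in the control library, Vwf in the mutant 1366 CPM, genes higher in the mutant 738, lower 421, and genes above the other gated cells 177. Median log2 ratios there were 1.29 for Weibel-Palade genes, 1.29 for anticoagulant genes, 0.83 for valve endothelial genes, 0.83 for Notch genes, 0.28 for flow-responsive genes, 0.98 for miR-126 targets, -0.11 for interstitial matrix, -0.20 for S phase and 0.54 for G2 and M phase genes. Thinning to 2000 UMIs gave shares of 0.415% in the mutant and 0.761% in the control library, and 0.877% in the control over 100 draws. A minimum of 5 UMIs gave in the control library a share of 0.826%, Vwf at 535 CPM and Procr at 1002 CPM. With Vwf and Procr each detected, the control share was 0.746%, control Vwf 512 CPM, genes lower in the mutant 249 and the immediate early median 0.022. Without cells of another lineage control Procr was 871 CPM. Genes higher and lower in the mutant numbered 476 and 291 in female-type cells (7 mutant, 46 control), 406 and 421 at a floor of 25 CPM, 65 and 33 at 100 CPM, 383 and 470 in Vwf-led cells, and 299 and 244 in Procr-led cells. With cells weighted equally 266 were higher. Against the other gated cells, 203 genes were higher and 147 lower at 25 CPM, 54 and 46 at 100 CPM, and 38 and 43 with classes weighted equally. The interstitial matrix median was -0.33 without doublets and -0.39 with cells weighted equally. The arterial median was -0.50 in Procr-led cells and 0.15 at a list floor of 50 CPM, where miR-126 targets had -0.33 and S phase genes -0.22. The valve endothelial median was 0.89 in Vwf-led cells. The G2 and M phase median was -2.19 with 2 counts added, -4.01 in Vwf-led cells, -2.44 in Procr-led cells and -1.75 without the 2 control cells richest in these genes. The mixture, lineage and 2-cell alternatives were among those chosen after seeing the data. No paired analysis was possible because each genotype is 1 library, and no library could be left out. With 209400 mutant and 289419 control UMIs, a gene at 10 CPM rests on about 2.09 mutant and 2.89 control UMIs.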

Other observations

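Other gene lists were read in the same way. Against the other endothelial-gated cells, genes of VEGF, angiopoietin and apelin signalling were at least 1.5-fold lower in both libraries for 9 of 20 and higher for 1, with median log2 ratios of -0.63 in the mutant and -1.17 in the control library. Glycolysis and hypoxia genes were lower for 8 of 21 and higher for none, with medians of -0.63 and -0.69. Genes of leukocyte adhesion were lower for 6 of 18 and higher for 1, and BMP and TGF-beta genes were higher for 6 of 23 and lower for 1. Venous and atrial-side genes were higher for 8 of 19 and lower for 4. All genes had 10.9% higher and 6.12% lower.

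In the mutant over the control cells, leukocyte adhesion genes were higher for 8 of 16 and lower for 3, with a median of 0.62, and VEGF, angiopoietin and apelin genes for 9 of 18 and 2, with a median of 0.53. In the other endothelial-gated cells these medians were 0.30 and 0.18. MicroRNA processing genes were higher for 5 of 16 and lower for 3, with a median of 0.23, and miR-17-92 targets were higher for 5 of 20 and lower for 6, with a median of 0.01. All genes had 21.1% higher and 23.6% lower.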
